A study of Homo sapiens with 4 samples.

Results

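The genes described here encode 10 cell surface molecules that take part when a cell crosses the endothelium, the cell layer that lines blood vessels: CD44, ALCAM, MCAM, L1CAM, ICAM1, VCAM1, F11R, JAM3, PECAM1 and CD99. They were chosen by symbol, and all 10 were found once among the 61471 gene names of the deposited count tables. Of the 10, 8 had enough counts to be tested, and VCAM1 and JAM3 did not. RNA came from MDA-MB-231, an established human line of triple-negative breast cancer, in 4 bulk libraries of cells whose genotype is labelled WT. Every library, in both groups, was from cells transfected with H2B-EGFP, a green fluorescent histone fusion, and CMV-RFP, a red fluorescent protein under a viral promoter. In the EGFP positive group (n = 2) the labels give no increase in extravasation, the exit of cells from a vessel, and in the EGFP negative group (n = 2) they give an increase. The sources used here do not say how cells were separated, how many were pooled or whether replicates were grown apart, so every p-value below reflects library-to-library spread, which could be technical. The comparison addressed which transcripts set the EGFP negative cells apart from the EGFP positive ones, and the EGFP and extravasation labels cannot be told apart in it.

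A circulating cell first slows on the vessel wall, then holds firmly, and then slips between or through endothelial cells. CD44 binds hyaluronan and can carry selectin ligands during slowing, whereas ICAM1 and VCAM1, shown mainly by activated endothelium, are bound by integrins of the arriving cell during firm adhesion. PECAM1, CD99 and the junctional adhesion molecules F11R (JAM-A) and JAM3 (JAM-C) sit at endothelial borders and are engaged during passage itself. ALCAM, MCAM and L1CAM are immunoglobulin superfamily molecules that bind themselves or partners on other cells and are carried by many invasive tumour cells.

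Of the 6 members called changed, 4 were lower and 2 higher in EGFP negative cells. MCAM and ICAM1 were at less than 50% of their EGFP positive level, and L1CAM and CD44 also fell, while CD99 rose slightly and PECAM1 rose from a very low level. ALCAM, the most abundant member after CD44, averaged 428 ± 6.46 CPM in the positive group and 430 ± 32.2 CPM in the negative group (SD, n = 2 each). Of the 8 members tested, 4 were called lower, where 9.46% of the 16413 genes tested were lower, and 2 were called higher, where 9.4% were. PECAM1, 1 of these 2, entered the test only through the group where it was high, so its call and rank are given as a description. In either direction 18.9% of all tested genes were called, so a call by itself was common in these data. The members were chosen with earlier results of these data known, so their counts beside these shares are a description. CPM is the count scaled for depth, with library totals adjusted by TMM. Each fold change divides the EGFP negative by the EGFP positive level. A gene was called at an adjusted p below 0.05 in edgeR's quasi-likelihood test with Benjamini-Hochberg adjustment over all tested genes. The ± beside a log2 fold change is its standard error. In bulk RNA, fewer cells carrying a transcript and less of it per cell cannot be told apart.

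**Figure D1:**
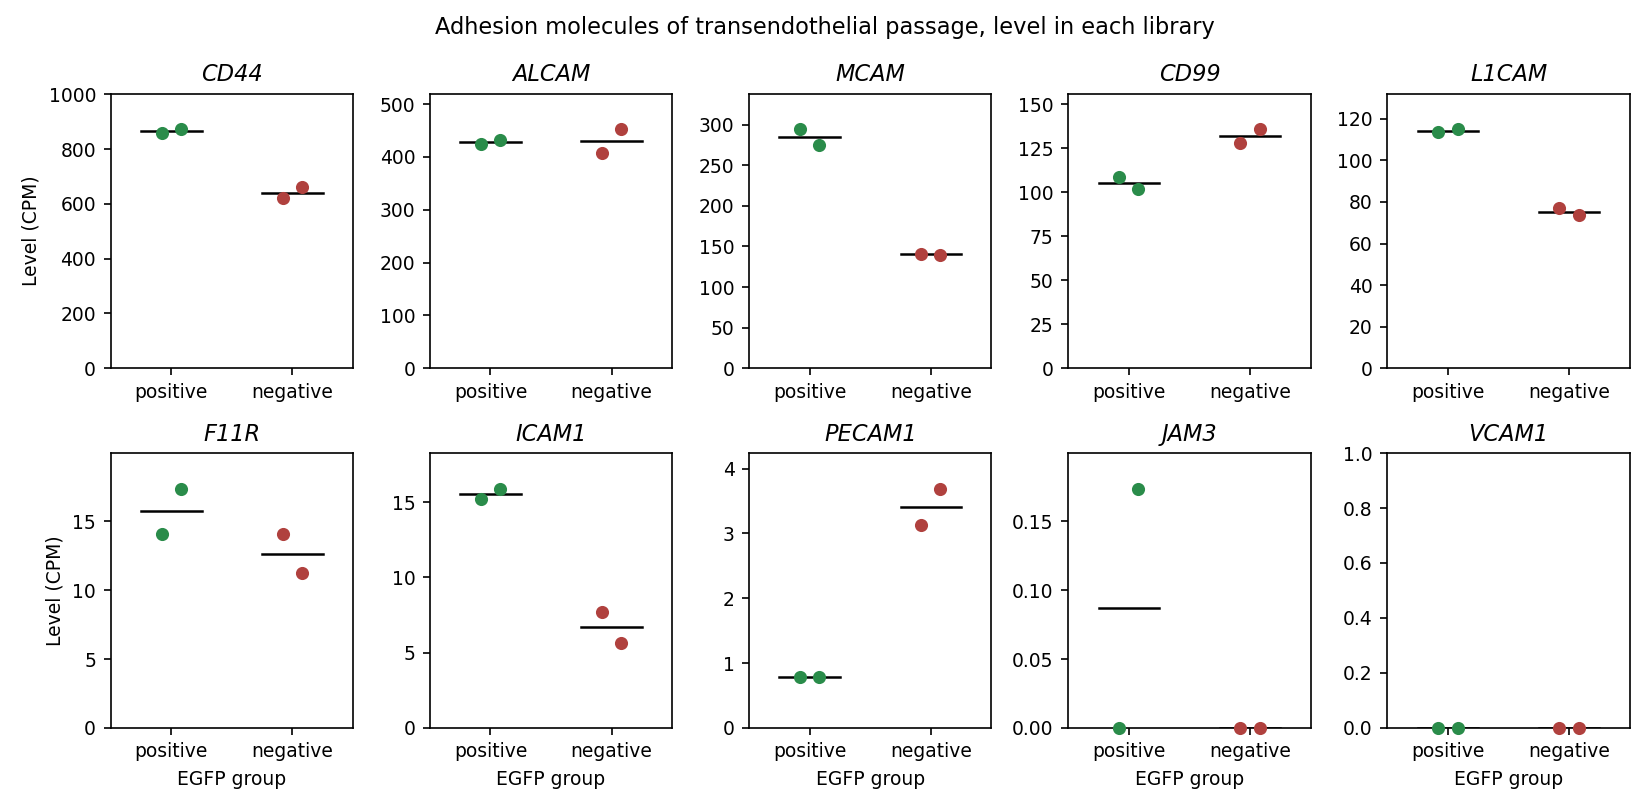
Level of each member in CPM (y axis, linear and starting at 0, with its own scale in each panel) in the 2 EGFP positive (green) and 2 EGFP negative (red) libraries; points are libraries and lines are group means. MCAM falls from 274 or more to 141 or less, PECAM1 lies below 0.79 in EGFP positive and above 3.1 in EGFP negative libraries, and VCAM1 is at 0 in all 4.

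Total counts ran from 11445076 to 12635576 per library, and a count of 3 amounted to 0.237 to 0.262 CPM before TMM scaling. All 5 markers of a basal line were present: VIM rose from 4199 to 5813 CPM (adjusted p = 2.0e-04), EGFR fell from 601 to 479 CPM (adjusted p = 0.0059, lost without either EGFP positive library), and AXL (1693 and 1623 CPM), KRT8 (412 and 438 CPM) and KRT18 (426 and 398 CPM) were not called. Copies such as KRT8P3 (2346 to 2674 counts per library) and KRT18P11 (235 to 402) also took counts, so the levels of KRT8 and KRT18 are uncertain. Of 5 markers of hormone receptor or ERBB2 positive cancer, ESR1, PGR and FOXA1 had 0 to 2 counts in every library. GATA3 was at 11.1 and 9.73 CPM, and ERBB2 was at 81.1 and 97.1 CPM (adjusted p = 0.057). ERBB2 was called higher by upper quartile scaling and without either EGFP negative library. Of 9 endothelial markers, CDH5 and ERG were at 0 and VWF, TEK, CLDN5 and EMCN had 0 to 3 counts per library, and the summed level of the 9 was 19.1 to 19.4 CPM in EGFP positive and 18.4 to 20.8 CPM in EGFP negative libraries. Of 7 leukocyte markers, CD3E and CD2 were at 0 and PTPRC had 2 to 6 counts, and the summed level of the 7 was 5.12 to 6.23 CPM in EGFP positive and 11.1 to 11.2 CPM in EGFP negative libraries. Within this sum CSF1R was at 1.34 and 6.42 CPM in the positive and negative groups, CD14 at 0.346 and 0.787 and LCP1 at 3.38 and 3.57. PTPRC was at 0.346 and 0.246 CPM and CD79A at 0.260 and 0.166 CPM.

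Compared per length, the members spanned a wide range of levels. TPM, counts divided by exon length and scaled to a common total per library, gave CD44 at 324 ± 9.22 in EGFP positive and 234 ± 14.4 in EGFP negative cells (SD, n = 2). ALCAM followed at 206 and 202 TPM, MCAM at 195 and 93.7 TPM, CD99 at 58 and 70.8 TPM and L1CAM at 50.7 and 32.6 TPM. These CD99 values are understated, because the length used held the gene more than once, as described below. The scarcer members were ICAM1 (11.9 and 4.96 TPM), F11R (7.75 and 6.06 TPM) and PECAM1 (0.261 and 1.11 TPM), with JAM3 and VCAM1 at or next to 0. Neighbours in this order were separated in both libraries of a group, except F11R and ICAM1 in EGFP negative cells and JAM3 and VCAM1 in both groups.

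The length used for CD99 held 2 copies, because the gene lies in the region shared by the X and Y chromosomes and both entries carry its name. With 1 copy in the length, CD99 was at 116 ± 2.88 TPM in EGFP positive and 142 ± 8.09 TPM in EGFP negative cells (SD, n = 2). It then stayed below MCAM in EGFP positive cells and stood above MCAM (93.7 TPM) in EGFP negative cells. The length of 4140 bases lists the same gene on both chromosomes, where 1 copy has 2070 bases. It therefore understates CD99 beside other members, and the order with 1 copy is the one to read. Exons of other genes covered 39.9% of the exon length of F11R and 29.3% of that of ICAM1, and the counting did not assign reads that fit 2 genes. Over the uncovered exon bases ICAM1 was at 16.8 ± 0.798 and F11R at 12.9 ± 2.12 TPM in EGFP positive cells. In EGFP negative cells they were at 7.01 ± 1.42 and 10.1 ± 1.45 TPM (SD, n = 2).

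With both copies in the length of CD99, the summed level of the 10 members was 846 and 862 TPM in EGFP positive libraries 1 and 2. In EGFP negative libraries 1 and 2 it was 620 and 670 TPM. The sum and the share of CD99 are therefore understated, and the shares of the other members with counts are overstated. CD44, for its part, made up 37.6 and 38.4% of this sum in the EGFP positive and 36.1 and 36.5% in the EGFP negative libraries. MCAM went from 23.6 and 22.1% to 15.0 and 14.1%, and ALCAM from 23.8 and 24.5% to 30.5 and 32% with no change called in its own level. CD99, with both copies in its length, took 6.98 and 6.61% in the EGFP positive libraries and 10.96% in EGFP negative library 1. These shares depend on each other, since they add up to the whole, and were not tested.

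**Figure D2:**
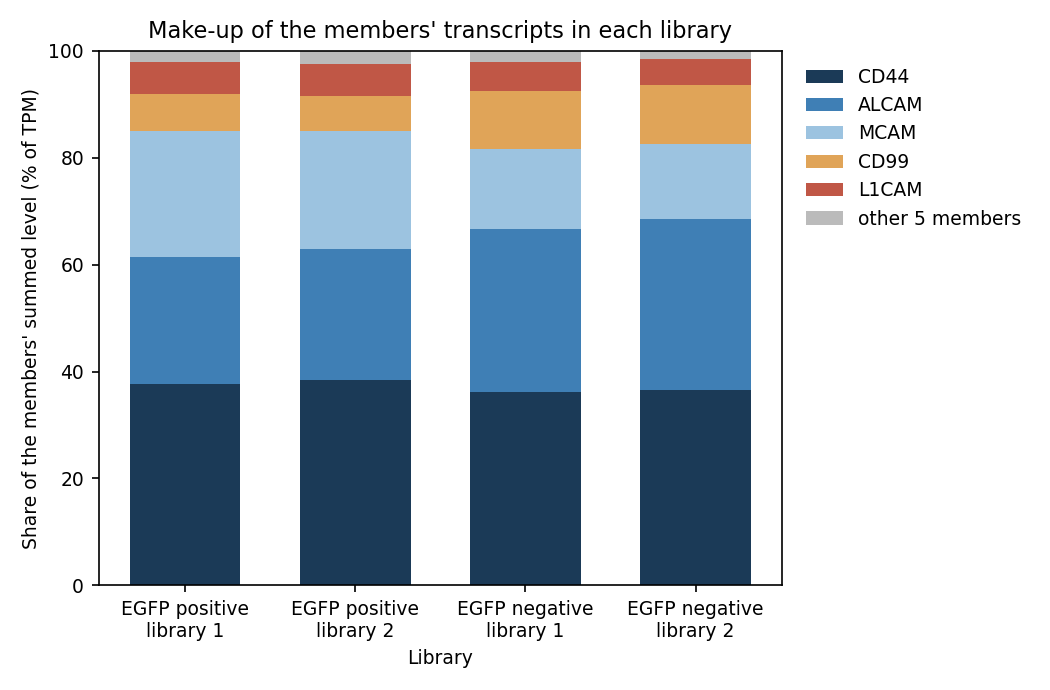
Share of each member in the summed TPM of the 10 members (y axis, percent) in each of the 4 libraries (x axis). The length of CD99 holds both copies, which understates its share. MCAM takes 22.1% or more in EGFP positive and 15.0% or less in EGFP negative libraries, while ALCAM takes 23.8 to 24.5% and 30.5 to 32%.

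Among the receptors of slowing and homing, CD44, the main hyaluronan receptor (GRCh38 chromosome 11, 35138882 to 35232402), fell moderately. It was at 859 and 872 CPM in EGFP positive libraries 1 and 2 and at 620 and 662 CPM in EGFP negative libraries 1 and 2. Both EGFP negative libraries lay below both EGFP positive ones. Its log2 fold change was -0.43 ± 0.07 (95% interval -0.59 to -0.28), 1.35-fold lower, with an adjusted p of 0.00083. Counts per gene add up all splice forms of CD44, so the variants of its alternative exons could not be compared.

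MCAM (CD146), a receptor of the immunoglobulin superfamily named for melanoma and found also on endothelium, fell with the smallest adjusted p of the members. Its gene lies on the minus strand of chromosome 11, at 119308529 to 119317130. EGFP positive libraries 1 and 2 had 3399 and 3159 counts, or 294 and 274 CPM, and EGFP negative libraries 1 and 2 had 1750 and 1629 counts, or 141 and 139.6 CPM. The groups did not overlap, and the EGFP negative libraries differed from each other by about 1 CPM (SD 0.696). This was a log2 fold change of -1.02 ± 0.08 (95% interval -1.20 to -0.85), 2.03-fold lower, with an adjusted p of 1.1e-06. No exon of another gene covered exons of MCAM.

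L1CAM, a neural adhesion molecule also made by many carcinomas (chromosome X, 153861514 to 153886173), fell by less than MCAM. It was at 113 and 115 CPM in the EGFP positive libraries and at 77.1 and 73.5 CPM in the EGFP negative ones, again without overlap. For L1CAM the log2 fold change was -0.60 ± 0.09 (95% interval -0.79 to -0.41), 1.52-fold lower, with an adjusted p of 3.0e-04.

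ALCAM (CD166), which binds CD6 and other ALCAM molecules (chromosome 3, 105366909 to 105576900), was at 424 and 433 CPM in EGFP positive libraries 1 and 2 and at 407 and 452 CPM in EGFP negative libraries 1 and 2. The EGFP negative libraries lay on either side of the EGFP positive pair. Its log2 fold change was 0.00 ± 0.08 with an adjusted p of 0.98, and its 95% interval ran from -0.17 to 0.17. An equal level is not shown by this, but changes of the size seen in CD44, L1CAM or MCAM lay outside the interval.

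Among the ligands of leukocyte integrins, ICAM1 (chromosome 19, 10271093 to 10286615) fell and VCAM1 (chromosome 1, 100719742 to 100739045) had no count in any library. Reads of ICAM1 numbered 176 and 183 (15.2 and 15.9 CPM) in the positive group and 96 and 66 (7.71 and 5.66 CPM) in the negative group. All EGFP negative values were below the EGFP positive ones, and the EGFP negative pair differed more from each other than the EGFP positive pair did. The log2 fold change was -1.21 ± 0.19 (95% interval -1.62 to -0.81), 2.32-fold lower, with an adjusted p of 0.00044. For VCAM1 a count of 0 allows up to 0.237 to 0.262 CPM in a library, a limit that covers counting error only. Nothing can be said of a difference in VCAM1 between the groups.

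The stretches before the starts of MCAM, VCAM1 and ICAM1 are shown as examples of members at different levels. MCAM is abundant and fell, ICAM1 is scarce and fell, and VCAM1 had no counts. The stretches are not those of the most abundant members. All are RefSeq sequences on GRCh38.p14, 5′ to 3′ on the strand of the gene, with positions counted back from the base before the RefSeq start. Capitals mark matches, on either strand, to the TATA box (spelled TATAAA), the SP1 GC box (spelled GGGCGG), the cyclic AMP element (spelled TGACGTCA) and the NF-kB consensus (spelled GGGRNNYYCC). Here R is A or G, Y is C or T, and N is any base. Sites spelled otherwise were not searched for, so a count of matches is not a count of sites. The AP-1 site (spelled TGANTCA) and the TEAD site (spelled GGAATG) were searched as well, and neither had a match in any window of a member. The first 2 cover the 250 bases before the start (MCAM chr11:119317131-119317380, minus strand; VCAM1 chr1:100719492-100719741, plus strand), and the ICAM1 stretch covers bases -42 to -13 (chr19:10271078-10271107, plus strand).
MCAM: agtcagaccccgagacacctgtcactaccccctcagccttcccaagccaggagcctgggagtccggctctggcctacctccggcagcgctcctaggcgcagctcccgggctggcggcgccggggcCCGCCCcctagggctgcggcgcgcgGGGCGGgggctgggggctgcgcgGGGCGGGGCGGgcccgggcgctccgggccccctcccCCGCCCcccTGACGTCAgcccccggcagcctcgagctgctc
VCAM1: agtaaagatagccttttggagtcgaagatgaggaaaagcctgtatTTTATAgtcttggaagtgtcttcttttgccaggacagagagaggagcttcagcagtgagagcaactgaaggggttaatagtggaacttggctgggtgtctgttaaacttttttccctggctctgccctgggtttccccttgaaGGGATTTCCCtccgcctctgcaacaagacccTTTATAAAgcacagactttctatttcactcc
ICAM1: ggtggctagcgcTATAAAggatcacgcgcc
The MCAM stretch held 5 GC boxes, of which 2 overlap by 1 base, and 1 cyclic AMP element beginning at -32, and no TATA box. A GC box was found in 42.6% and a cyclic AMP element in 1.65% of 35116 RefSeq windows of the same length, a TATA box in 10.7%, an AP-1 match in 6.57%, a TEAD match in 11.9% and an NF-kB match in 9.96%. VCAM1 held 1 NF-kB match beginning at -62 and 3 TATA matches, at -205, -31 and -29, of which the last 2 overlap on opposite strands. In the whole window of 250 bases before ICAM1, 1 TATA match at -30 and 2 GC boxes were found, and no match to the other 4 motifs. The ICAM1 gene as counted begins at 10271093, inside the printed stretch, so -30 holds for the RefSeq start only. VCAM1 had 2 CpG pairs in its window against 23 in that of ICAM1 and 26 in that of MCAM, where the median over all windows was 11. A match is a string of letters, and no binding was measured here. Windows were found for 7 of the 10 members, all but F11R, JAM3 and PECAM1. Each window ends at a RefSeq start, which can lie inside the span of the gene as counted. All 250 bases lay inside it for CD44 and L1CAM, 108 for CD99 and 27 for ICAM1.

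Of the molecules of the passage itself, CD99 and PECAM1 rose. CD99, a small glycoprotein on leukocytes and at endothelial borders (chromosome X, 2691187 to 2741309, with a second copy on Y), was at 108 and 102 CPM in EGFP positive libraries 1 and 2 and at 128 and 136 CPM in EGFP negative libraries 1 and 2. The groups did not overlap, but the step between them, from 108 to 128, was small. The log2 fold change was 0.32 ± 0.09 (95% interval 0.14 to 0.51), 1.25-fold higher, with an adjusted p of 0.019. The call was lost without EGFP positive library 1 (adjusted p = 0.15) and without EGFP positive library 2 (adjusted p = 0.34). The related sequence CD99P1 had 6 to 21 counts per library, against 1176 to 1591 for CD99.

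PECAM1 (CD31), which binds itself across endothelial borders and is a standard marker of endothelium (chromosome 17, minus strand, 64319415 to 64390860), was counted 9 and 9 times in the positive group and 39 and 43 times in the negative group. In CPM these were 0.779 and 0.781 against 3.13 and 3.69, so that every EGFP negative library lay far above every EGFP positive one. The log2 fold change was 2.11 ± 0.38 (95% interval 1.29 to 2.94), 4.32-fold higher, with an adjusted p of 0.0015. PECAM1 entered the test only through its EGFP negative libraries, since its EGFP positive counts were under the minimum of 10. At 1.11 TPM it remained the scarcest of the 8 members tested.

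Of the 9 endothelial markers 3 were tested and 1 was higher, and of the 7 leukocyte markers 2 were tested and 1 was higher. Over all tested genes 9.4% were called higher. TIE1, an endothelial receptor kinase, rose from 5.16 to 8.84 CPM (log2 fold change 0.78 ± 0.21, adjusted p = 0.018), and CSF1R, a receptor of macrophages, rose from 1.34 to 6.42 CPM (2.25 ± 0.36, adjusted p = 5.8e-04). CSF1R had 23 and 8 counts in EGFP positive and 81 and 74 in EGFP negative libraries, so that only the EGFP negative group met the minimum of 10 in both libraries, and its log2 fold change was 3.19 when EGFP positive library 1 was absent and 1.69 when library 2 of that group was. KDR, a receptor of vascular endothelial growth factor, was at 13.2 and 9.29 CPM (adjusted p = 0.067) and was called lower without EGFP negative library 1 (0.0035). CD34 had 5, 6, 16 and 11 counts (adjusted p = 0.14), and the leukocyte actin bundler LCP1 was at 3.38 and 3.57 CPM (adjusted p = 0.90). The defining endothelial genes CDH5 and ERG were at 0 in all libraries, as were CD3E and CD2 of T cells. The part of such cells in the rise of PECAM1 was not tested. The TIE1 call was lost by DESeq2 (adjusted p = 0.081) and without EGFP positive library 1 (0.061) or library 2 (0.19).

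The protein-coding genes whose values over the 4 libraries lay nearest to those of PECAM1, among 11981 compared by root mean square distance of centred log2 CPM, were GLB1L2, GBP2 and CHRM3, at distances of 0.049, 0.058 and 0.072. GBP2, an interferon-induced GTPase, was at 11.2 and 10.2 CPM in EGFP positive and 29.4 and 35.2 CPM in EGFP negative libraries. GLB1L2 had log2 fold change 1.88 and CHRM3, a muscarinic receptor, 1.71. The measure rests on 4 libraries, which share the same groups for every gene.

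F11R, which pairs with itself and with the integrin LFA-1 (chromosome 1, minus strand, 160995211 to 161021152), was at 14.10 and 17.4 CPM in EGFP positive and 14.06 and 11.2 CPM in EGFP negative libraries. EGFP negative library 1 and EGFP positive library 1 were nearly equal. The log2 fold change was -0.31 ± 0.17 (95% interval -0.68 to 0.06), with an adjusted p of 0.24. It was called lower only when EGFP negative library 1 was left out (log2 fold change -0.49, adjusted p = 0.034). A readthrough gene on the same strand, with 0 to 2 counts per library, covered 1853 bases of its exons, so reads there would have been left out for F11R.

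JAM3, a binding partner of JAM2 (chromosome 11, 134069071 to 134152001) had 2 counts in EGFP positive library 2 and 0 in the other libraries. Exons of NCAPD3, a condensin gene on the opposite strand with 2626 to 3058 counts per library, covered 50.2% of the exon length of JAM3. Since the counting used no strand, reads from that part were not assigned to JAM3, and its count rests on the other 1877 exon bases. No fold change is given for JAM3, all of whose counts were under the floor of 3.

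**Figure D3:**
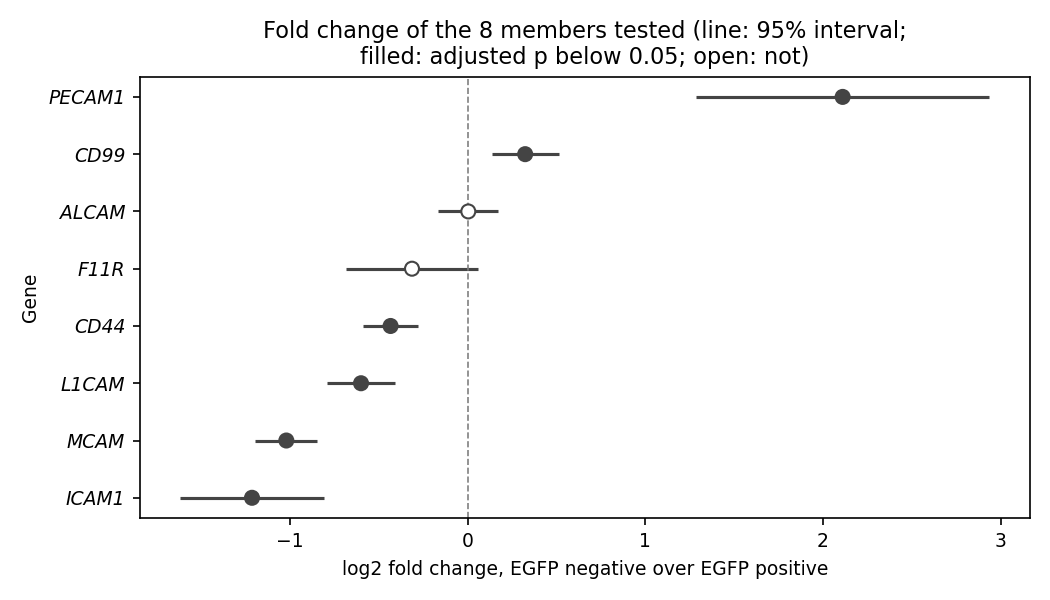
log2 fold change of the 8 members tested (x axis, EGFP negative over EGFP positive) with its 95% interval (line); filled points have an adjusted p below 0.05. ICAM1, MCAM, L1CAM and CD44 lie wholly below 0, PECAM1 and CD99 wholly above, and the intervals of ALCAM and F11R include 0.

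Set among all 16413 tested genes by the size of their log2 fold change in either direction, PECAM1, tested only through its EGFP negative libraries, was at percentile 99.0, ICAM1 at 96.3, MCAM at 94.7, L1CAM at 85.2, CD44 at 75.5, CD99 at 64.7, F11R at 63.4 and ALCAM at 1.05. The 2 most abundant members thus included the one with the smallest difference, and the 2 largest differences were in members at 15.6 CPM or less. These were also the least precise of the called changes, with standard errors of 0.38 for PECAM1 and 0.19 for ICAM1 against 0.07 for CD44. Libraries of the 2 groups did not overlap for 7 of the 8 members tested, 5 lower and 2 higher, and for 57.4% of all tested genes.

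Partners and relatives of the members were taken from 6 lists chosen by function. The median log2 fold change of all tested genes was -0.003, and 9.4% of them were called higher and 9.46% lower. These lists are described by their counts beside these values, and no list was tested as a set. Calls of BCAM, ITGB3, ST3GAL6, CEMIP, ADAM8, MMP14, TIMP1 and ACTN1 held in all 4 fits that left out 1 library. Without EGFP positive library 1 the calls of CXADR, ITGB1, ITGB2, ITGA5, PODXL, B4GALT1, CEMIP2, VCAN, ADAM15, NF2, TJP1 and MAGI1 were lost. Without EGFP positive library 2 those of ITGB1, ITGB2, ITGA5, GLG1, PODXL, B4GALT1, CEMIP2, ADAM15 and TJP1 were lost, and without EGFP negative library 2 that of CXADR.

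Paralogues of the members were mostly silent or not called. Of 15, 6 had no count in any library, among them JAM2, ICAM3 and CHL1, and 7 were tested, of which 1 was higher and 1 lower (median log2 fold change 0.17). BCAM, a laminin receptor related to MCAM, rose from 25.6 ± 0.307 to 56.9 ± 6.96 CPM (SD, n = 2), so that this pair of relatives changed in opposite directions. CXADR, a junctional relative of the JAM proteins, fell from 9.75 to 6.03 CPM (log2 fold change -0.69 ± 0.22, adjusted p = 0.039), a call that DESeq2 did not make (adjusted p = 0.14). The endothelial ESAM, at 244 and 275 CPM (adjusted p = 0.23), was at 305 and 334 TPM per length, and was called higher only without EGFP negative library 2. CD99L2, the relative of CD99, was at 120.3 and 137 CPM (adjusted p = 0.15, and 0.019 without EGFP negative library 2).

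Integrin subunits that bind ICAM1, VCAM1, the JAM proteins or L1CAM had few counts where they belong to leukocytes, apart from ITGB2. Of 11 subunits 5 were tested, with 3 higher and 1 lower (median log2 fold change 0.29). ITGA4, whose product pairs with beta 1 to bind VCAM1, and ITGAL, the alpha chain of LFA-1, had no counts in any library. The shared leukocyte beta chain ITGB2 rose from 12.1 to 17.3 CPM (log2 fold change 0.52 ± 0.16, adjusted p = 0.036), with no call by DESeq2 (adjusted p = 0.12). ITGB1 rose from 1167 to 1425 CPM and ITGA5 from 132 to 170.2 CPM (adjusted p = 0.012 and 0.0067), while ITGB3, whose heterodimer with alpha V binds L1CAM, fell from 8.32 to 3.70 CPM (log2 fold change -1.17 ± 0.23, adjusted p = 0.0023). The copy ITGB1P1 took 3258 to 4298 counts per library, so the level of ITGB1 is uncertain.

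Of 16 genes of selectins, their ligands and the enzymes of the ligand sugars, 11 were tested, with 3 higher and 1 lower (median log2 fold change -0.09). SELE and SELP, the endothelial selectins, had 0 or 1 count per library. The selectin ligands PODXL and GLG1 rose, from 378 to 492 CPM and from 163 to 223 CPM (adjusted p = 0.0022 and 0.0012), as did the galactosyltransferase B4GALT1 from 129.6 to 156 CPM (adjusted p = 0.043, and 0.077 by DESeq2). The sialyltransferase ST3GAL6 fell from 28.1 to 15.1 CPM (log2 fold change -0.89 ± 0.14, adjusted p = 5.1e-04). The fucosyltransferases FUT3, FUT6 and FUT7, which complete the sialyl Lewis x group, had no counts. FUT4, the other fucosyltransferase listed, was at 10.1 and 7.65 CPM (adjusted p = 0.18). Of the other listed ligands, SELPLG was at 1.47 and 1.70 CPM (adjusted p = 0.79) and CD24 at 8.23 and 7.57 CPM (adjusted p = 0.75).

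Genes of hyaluronan, the ligand of CD44, had 0 higher and 3 lower of 9 tested among 12 (median log2 fold change -0.26). Hyaluronan-degrading CEMIP fell from 25.7 to 15 CPM (log2 fold change -0.77 ± 0.14, adjusted p = 0.0011), CEMIP2 from 111 to 82.3 CPM (adjusted p = 0.0035) and VCAN, a proteoglycan that binds hyaluronan, from 1.95 to 0.34 CPM (adjusted p = 0.011) on 27, 18, 1 and 7 counts. VCAN, 1 of the 3 lower genes, entered the test only through the EGFP positive group, where it was high, and its log2 fold change of -2.51 was -1.69 without EGFP negative library 1 and -4.42 without EGFP negative library 2. The synthase HAS2 was at 16.9 and 13.9 CPM (adjusted p = 0.33), and was called lower only without EGFP negative library 2, which had 195 counts against 139 in EGFP negative library 1 (adjusted p = 0.0058).

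Proteases that release adhesion molecules from the surface, with their inhibitors, had 4 higher and 0 lower of 12 tested among 13 (median log2 fold change 0.21). MMP14, a membrane metalloproteinase that cleaves CD44, rose from 740.4 to 1245 CPM (log2 fold change 0.75 ± 0.07), the metalloproteinase inhibitor TIMP1 from 112 to 187 CPM (0.74 ± 0.09) and ADAM8 from 135 to 307 CPM (1.18 ± 0.10). ADAM15 rose from 217 to 268 CPM (adjusted p = 0.027). The main shedding enzymes ADAM10 (148 and 153 CPM, adjusted p = 0.80) and ADAM17 (36.6 and 45.7 CPM, adjusted p = 0.058) were not called, and ADAM17 was called higher by upper quartile scaling and without either EGFP negative library. Cleaved protein was not measured.

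Linkers that tie the tails of adhesion molecules to actin had 2 higher and 4 lower of 15 tested (median log2 fold change -0.06). EZR, MSN and RDX, the ERM proteins that bind the tails of CD44, ICAM1 and L1CAM, were at 502 and 476, 1053 and 985, and 152 and 126 CPM and were not called (adjusted p = 0.52, 0.39 and 0.063). RDX was called lower without EGFP negative library 2. NF2, or merlin, a relative of the ERM proteins, fell from 21.4 to 14.6 CPM (adjusted p = 0.015, and 0.056 by DESeq2), and ACTN1, an actin crosslinker that binds ICAM1, from 1067 to 787 CPM (log2 fold change -0.44 ± 0.07, adjusted p = 8.05e-04). Of the junction scaffolds that bind F11R and its relatives, TJP1 fell from 87.7 to 65.9 CPM and MAGI1 rose from 73.7 to 99.7 CPM (adjusted p = 0.013 and 0.0051). PARD3 also fell, from 114 to 93.2 CPM, and AFDN rose from 90.6 to 110 CPM (adjusted p = 0.038 and 0.041). The calls of PARD3 and AFDN were not followed over the alternatives. The processed copies MSNP1 (2926 to 3097 counts per library), EZRP1 (51 to 92), RDXP1 (47 to 74) and RDXP3 (126 to 215) also took counts. They share sequence with MSN, EZR and RDX, whose levels are therefore uncertain.

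**Figure D4:**
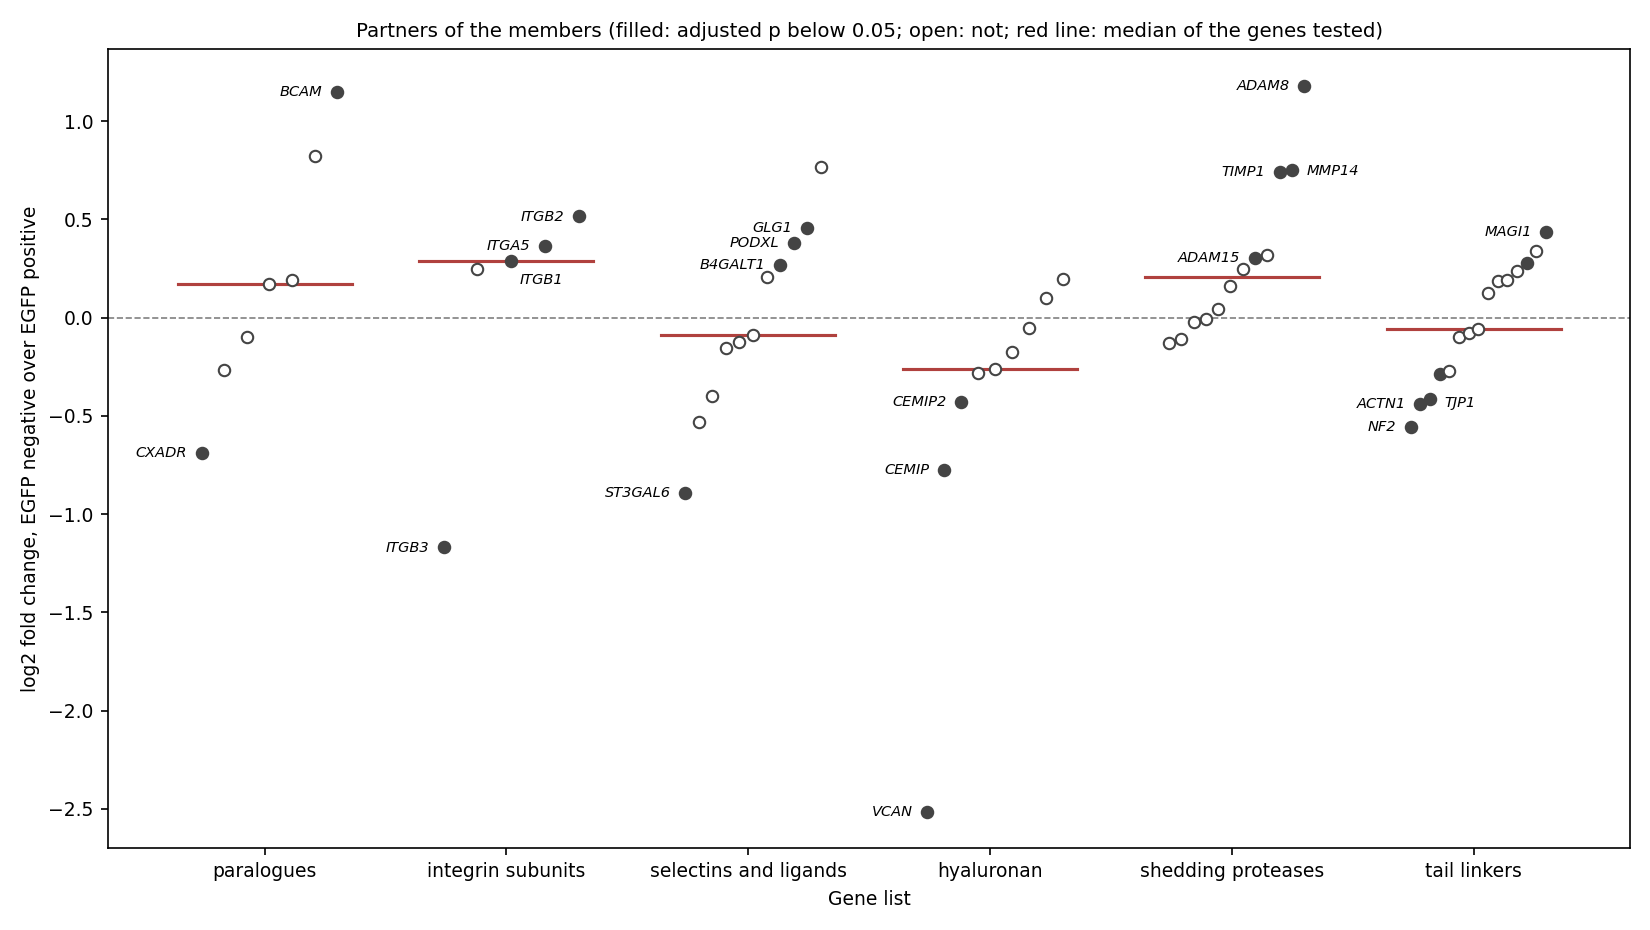
log2 fold change (y axis, EGFP negative over EGFP positive) of the tested genes in 6 lists of partners (x axis); filled points have an adjusted p below 0.05 and red lines are list medians. The hyaluronan list has 3 filled points, all below 0 and 1 of them VCAN, which was tested only through its EGFP positive libraries. The list of shedding proteases, which includes their inhibitors, has 4, all above 0 and 1 of them the inhibitor TIMP1.

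**Figure D5:**
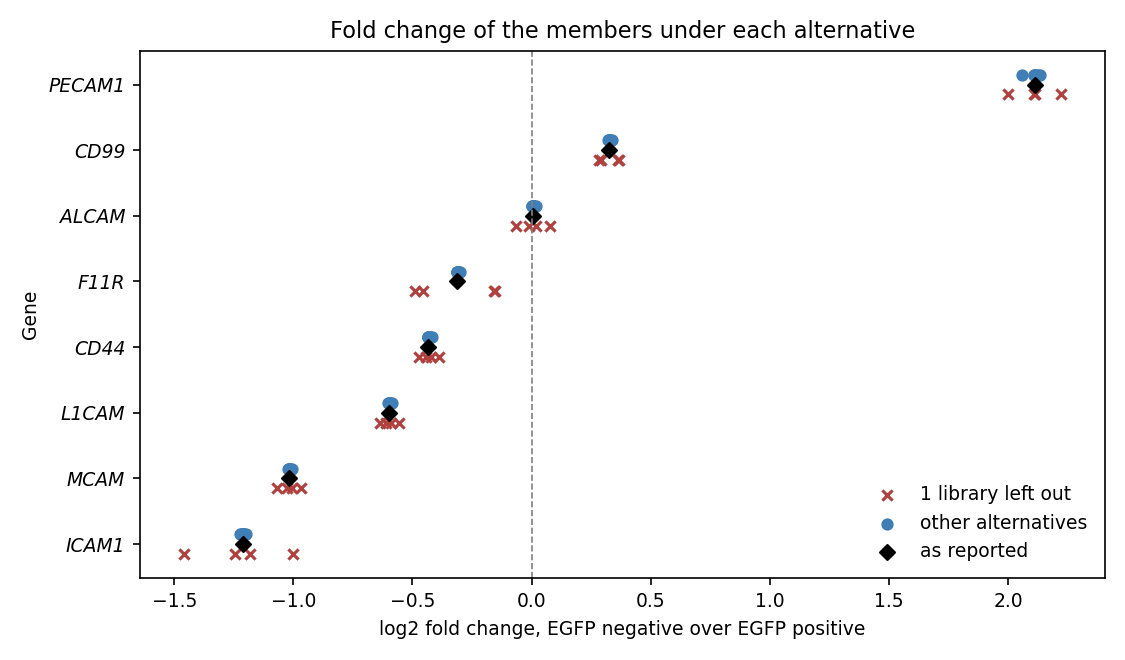
log2 fold change of each tested member (x axis, EGFP negative over EGFP positive) as reported (diamond), with 1 library left out (crosses) and under 7 other analysis settings (circles). MCAM stays between -1.07 and -0.97 and PECAM1 between 2.00 and 2.22, while ALCAM lies on both sides of 0.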

How the data were processed

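Gene expression was measured in 4 libraries, selected by polyA tail and made strand-specific per the labels' protocols. The authors deposited raw fragment counts per gene name, which featureCounts 2.0.1 made per the file headers from paired reads over GENCODE 46 exons with no strand option, so antisense genes could not be told apart. By its defaults, reads that fit 2 genes are not assigned. The submitters' processing notes name Subread as a tool and list GRCh37 and hg19 as builds. The aligner is not given in the sources used here. All 18693 protein-coding genes compared overlapped their GENCODE 29 place on GRCh38, whose coordinates are used. That comparison covers the annotation only and cannot show the build to which the reads were aligned.

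Genes were kept by filterByExpr (minimum count 10, minimum total 15), scaled by TMM and tested with edgeR 4.0.16 (R 4.3.3), group as the only term, two-sided. An exact permutation of 2 against 2 libraries cannot go below p = 0.33. Intervals are 95%, from the test's standard error. Replicates differed by more than sampling noise (chi-square per degree of freedom 2.13 and 6.77), so none was counted as a duplicate. Alternatives used DESeq2 1.42.0, limma 3.58.1 (voom), other scalings and filters, the replicate number as a block, and each library left out; both length alternatives for TPM were chosen after seeing the data. The analysis was tested on simulated data. It recovered 50.7% of 1.5-fold, 82.1% of 2-fold and 98.5% of 4-fold changes, and 10 of its 164 calls were of unchanged genes. A gene that was not called may therefore still have changed.

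The members and lists were chosen with earlier results of these data known. Named genes were all members, up to 4 called genes of each list by smallest adjusted p (or 2 by level where none was called), genes whose exons overlap a member, and the 3 nearest to the called member with the largest change. Silent genes, ESAM, CD99L2, CD24, HAS2, ADAM10, ADAM17, EZR, RDX, MSN, PARD3, AFDN, KDR, LCP1, CD34, CD14, CD79A, HMMR, FUT4, SELPLG, AXL, KRT8, KRT18, processed copies and the printed sequences were chosen after their values were seen.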

Additional observations from a re-analysis of the deposited data

How the results depend on the processing

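The calls of CD44, MCAM, L1CAM and ICAM1 held under all 11 alternatives. Their log2 fold changes were -0.47 to -0.39, -1.07 to -0.97, -0.64 to -0.56 and -1.46 to -1.002. PECAM1 kept its call too, at 2.00 to 2.22. It entered the test only through its EGFP negative libraries, so this is given as a description. Leaving out each library in turn, CD99 ran from 0.28 to 0.37, F11R from -0.49 to -0.15 and ALCAM from -0.065 to 0.076, which changed sign when positive library 1 (-0.011) or negative library 2 (-0.065) was absent. Members called higher were then 1 to 2 and members called lower 4 to 5. Over all genes, 1543 were higher and 1552 lower as reported, and leaving out 1 library gave 720 to 2477 higher and 715 to 2465 lower. DESeq2 gave 1044 higher and 997 lower genes. The cause was not tested. With the replicate block 2297 genes were higher and 2407 lower, and no call of a member changed. Of the other genes named, the block called ADAM17 (adjusted p = 0.0096), CD99L2 (0.049) and ERBB2 (0.0097) higher and KDR (0.013) and RDX (0.0025) lower; the numbers name libraries without a stated pairing, and the deviations of same-numbered libraries had a correlation of 0.14 across genes. Among other named genes, ADAM10 (-0.073 to 0.16), CD24 (-0.28 to 0.058), HMMR (-0.0043 to 0.21) and LCP1 (-0.065 to 0.24) changed sign when 1 library was absent, and none was called. Levels per length over uncovered exon bases were 45.2 TPM for L1CAM against 41.7 TPM over the full length, and those of CD99, F11R and ICAM1 are given above. Their means over all libraries moved from 64.4 to 129, 6.90 to 11.5 and 8.41 to 11.9 TPM. With 2 libraries a group and counts under 50, the size of the PECAM1 change is known only to its interval of 1.29 to 2.94, and at 0 to 2 counts none was detectable in VCAM1 or JAM3.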
